A study of Mus musculus with 6 samples.

Results

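RNA sequencing of bone cells from control and dexamethasone-treated mice was used to follow 10 genes best known from the endothelium, the inner lining of blood vessels: Cd34, Vwf, Cd93, Adgrf5, Esam, Pecam1, Ptprb, Eng, S1pr1 and Ramp2. They are 10 of the 29616 genes in the deposited table and were picked because their levels were higher or lower with dexamethasone in these same libraries. The difference between the groups is therefore given for them as a description, and cut-offs that they passed are not read as a test. The label of surface genes holds for 9 products known as membrane proteins, whereas von Willebrand factor (Vwf) is a stored and secreted protein. The control group had 3 libraries from C57BL/6 mice without the drug, and the dexamethasone group had 3 libraries from C57BL/6 mice given this synthetic glucocorticoid. Per the study's methods, the dose was 0.08 µg/g each day for 4 weeks from 8 weeks of age, a model of glucocorticoid-induced bone loss. The labels call all 6 samples bone cells, and the study describes Osteocalcin-positive cells taken from bones without marrow, with brief fixation and permeabilization before antibody staining. Neither source says whether a library came from 1 mouse or from several, so the spread between libraries may be partly technical. The libraries held 72596611 to 89910728 counted reads.

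Endothelial cells are held together by homophilic adhesion molecules and sense blood-borne signals through receptors on their surface. CD31 (Pecam1) and ESAM join neighbouring cells, and the sialomucin CD34 and the lectin CD93 act in adhesion. VE-PTP (Ptprb) is a tyrosine phosphatase that acts on the receptor Tie2 and on VE-cadherin. Endoglin is a co-receptor for BMP9 and TGF-beta, S1pr1 is a receptor for the blood lipid sphingosine 1-phosphate (S1P), Ramp2 makes the calcitonin receptor-like receptor respond to adrenomedullin, and Adgrf5 is an adhesion G protein-coupled receptor. Several of these genes are also active outside endothelium. CD34 marks blood and mesenchymal progenitors, Pecam1 and Vwf are expressed in platelets and their precursors, and S1pr1 and endoglin occur on mesenchymal cells.

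The 10 genes fell into a group of 6 with higher and a group of 4 with lower levels in the dexamethasone libraries. The members with higher levels ranged from 1.68-fold for Pecam1 to 6.83-fold for Cd93, and those with lower levels from 44.0% of the control mean for Ramp2 to 17.6% for S1pr1. For all 10 genes the 3 control libraries did not overlap the 3 dexamethasone libraries, which also held for 74.7% of the 17442 genes tested. At a limma adjusted p-value under 0.05 with a log2 fold change of at least 1, which 22.3% of all tested genes passed, 8 of the 10 met the cut-offs, 4 higher and 4 lower. Vwf and Pecam1 were short of the fold cut-off, and Cd34, at a log2 fold of 1.04, went under it at an equal library total (0.93) and after quantile normalization (0.85). By direction, 11.7% of all tested genes were called higher and 10.6% lower. With the adjusted p-value alone, all 10 passed, 6 higher and 4 lower, as did 72.5% of all tested genes, 37.2% higher and 35.2% lower. Because the genes were chosen from this contrast, nothing is read from these counts. In bulk samples, fewer cells of a kind and less RNA per cell cannot be told apart.

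**Figure D1:**
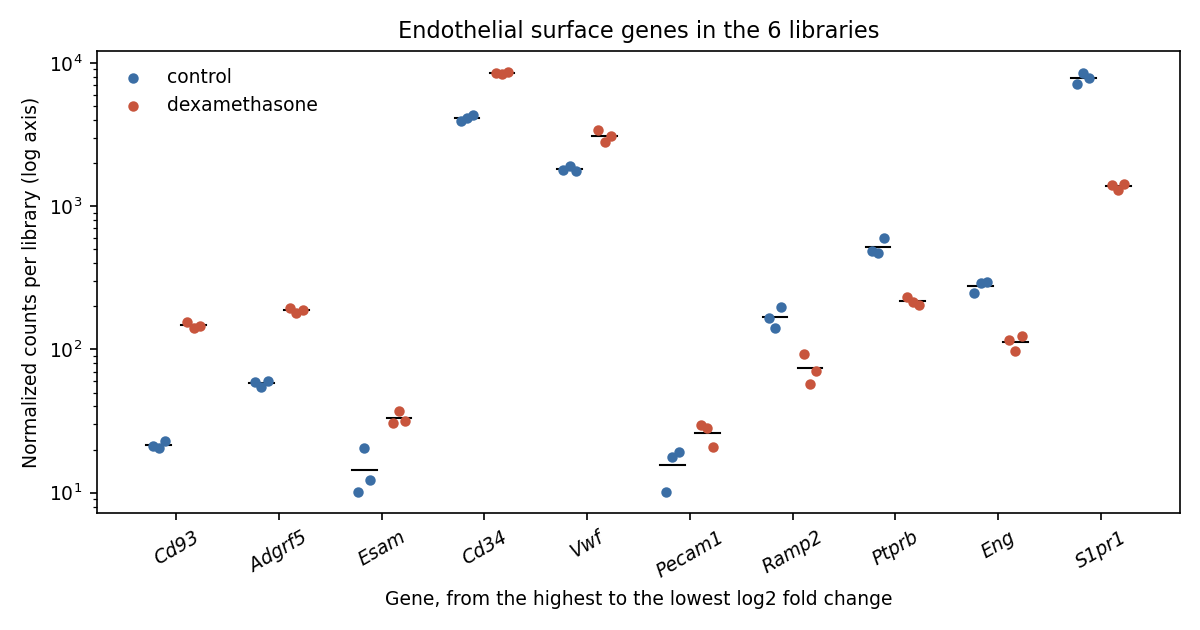
Normalized counts (log axis) of the 10 genes in each of the 6 libraries, with a point for each library, blue for control and red for dexamethasone, and a bar at the group mean. Cd34 stands at 3929 to 4303 in the control and 8316 to 8666 in the dexamethasone libraries, while S1pr1 stands at 7119.6 to 8469.9 and 1296 to 1435.

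Among the adhesion molecules, Cd34 was the most abundant. It had 3929, 4151 and 4303 normalized counts (reads divided by a size factor for each library) in the control libraries and 8528, 8316 and 8666 in the dexamethasone libraries, here and throughout in the order of replicates 1, 2 and 3. The means were 4128 ± 188 and 8503 ± 176 (SD, n = 3 each), a 2.06-fold difference. The spread within groups was 4.56% and 2.08% of the mean.

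Cd93 had the largest fold of the 10 genes from a low start. It had 21.1, 20.5 and 22.8 normalized counts in the control libraries and 155, 141 and 145 in the dexamethasone libraries. The means of 21.5 ± 1.20 and 147 ± 7.08 (SD, n = 3 each) differed 6.83-fold, with a log2 fold change of 2.72 (standard error 0.185). The control values rested on 23, 21 and 26 reads, so that counting alone gives a spread of 20.7% of the mean there, more than the 5.57% observed.

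Esam and Pecam1, which encode immunoglobulin-like junction proteins, were close to the lower end of what the libraries resolved. Esam had 11, 21 and 14 reads in the control and 32, 34 and 27 reads in the dexamethasone libraries. In normalized counts it had 10.1, 20.5 and 12.3 in the control and 30.5, 37.1 and 31.4 in the dexamethasone libraries, with means of 14.3 ± 5.51 and 33.0 ± 3.55 (SD, n = 3 each). The control libraries varied by 38.5% of their mean, against 25.5% from counting alone, and the log2 fold change of 1.20 lay between 1.00 without control replicate 1 and 1.48 without control replicate 2. Pecam1 had 10.1, 17.6 and 19.3 normalized counts in the control and 29.6, 28.3 and 20.9 in the dexamethasone libraries, from 11 to 22 and 18 to 31 reads. Its means were 15.7 ± 4.91 and 26.3 ± 4.67 (SD, n = 3 each). The highest control and the lowest dexamethasone library of Pecam1 were only 1.60 normalized counts apart. Its log2 fold change of 0.74 was 0.47 without control replicate 1.

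Vwf, the large clotting glycoprotein that captures platelets, had 1801, 1916 and 1758 normalized counts in the control libraries and 3389, 2809 and 3094 in the dexamethasone libraries. The means of 1825 ± 81.8 and 3097 ± 290.1 (SD, n = 3 each) differed 1.70-fold. The dexamethasone libraries varied more, by 9.37% of the mean against 4.48% in the control libraries.

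Adgrf5, the adhesion receptor, had 58.8, 54.8 and 60.6 normalized counts in the control and 195, 179 and 187 in the dexamethasone libraries. The means of 58.1 ± 2.98 and 187 ± 7.92 (SD, n = 3 each) differed 3.22-fold, a log2 fold change of 1.67 (standard error 0.141). The spread within groups was 5.13% and 4.24% of the mean, less than the 12.6% and 7.53% that counting alone gives.

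S1pr1 was the most abundant of the 10 genes in the control libraries and had the widest difference downward. It had 7119.6, 8469.9 and 7902 normalized counts in the control libraries and 1409, 1296 and 1435 in the dexamethasone libraries. Its dexamethasone mean of 1379.9 ± 73.8 (SD, n = 3) was 17.6% of the control mean, with a log2 fold change of -2.50 (standard error 0.0518). Every dexamethasone library was far below the lowest control library.

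Ptprb had 485, 472 and 598 normalized counts in the control libraries and 234, 213 and 203 in the dexamethasone libraries, so that the dexamethasone mean was 41.8% of the control mean. Control replicate 3 stood above the other control libraries, and without it the log2 fold change moved from -1.25 to -1.14. Eng had 248, 289.6 and 297 normalized counts in the control libraries and 116, 98.1 and 124 in the dexamethasone libraries, with a dexamethasone mean of 40.6% of the control mean and a log2 fold change of -1.30.

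Ramp2 had 164, 139.9 and 199 normalized counts in the control libraries and 92.5, 57.8 and 70.9 in the dexamethasone libraries. The dexamethasone mean was 44.0% of the control mean, and the groups were 47.4 normalized counts apart at their closest. The spread within groups was 17.6% and 23.8% of the mean, where counting alone gives 7.40% and 11.9%. The count of Ramp2 is uncertain, because exons of its neighbour Vps25 on the same strand overlap 33.4% of its exon bases in the GENCODE M21 annotation, and 70.5% of its stretches of 75 bases occur in no other gene. Vps25 itself had a mean of 32.0 ± 8.75 and 29.8 ± 1.54 (SD, n = 3 each) normalized counts (log2 fold -0.063, limma adjusted p = 0.842). For the other 9 genes at least 99.7% of such stretches occurred in no other gene. Exons of genes on the opposite strand overlapped 2.03% of the exon bases of Cd34 and 1.51% of those of Eng, and the strand setting of the count was not given in the sources used here.

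Per kilobase of exon, which allows levels of different genes to be compared, the order of the genes differed between the groups. In the control libraries S1pr1 led with 2571 ± 223 (SD, n = 3) normalized counts per kilobase, followed by Cd34 with 566 ± 25.8, Vwf with 114 ± 5.09, Eng with 68.7 ± 6.55, Ramp2 with 50.8 ± 8.93 and Ptprb with 38.8 ± 5.19. Adgrf5, Esam, Cd93 and Pecam1 were lowest there, between 6.44 and 2.52 normalized counts per kilobase. The neighbours Ramp2 and Ptprb, Adgrf5 and Esam, and Cd93 and Pecam1 overlapped between libraries and were not separated. With dexamethasone Cd34 led with 1166 ± 24.2 (SD, n = 3), followed by S1pr1 with 453 ± 24.2 and Vwf with 193 ± 18.1 normalized counts per kilobase. Eng, Ramp2, Cd93 and Adgrf5 followed between 27.9 and 20.7, each overlapping the next, and Pecam1 was lowest with 4.22 ± 0.751. Among all tested genes, the level per kilobase of S1pr1 moved from percentile 92.9 to 58.9 and that of Cd34 from 65.9 to 79.3. Cd93 went from percentile 3.14 to 20.1, while Pecam1 was at 2.29 and 4.51.

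**Figure D2:**
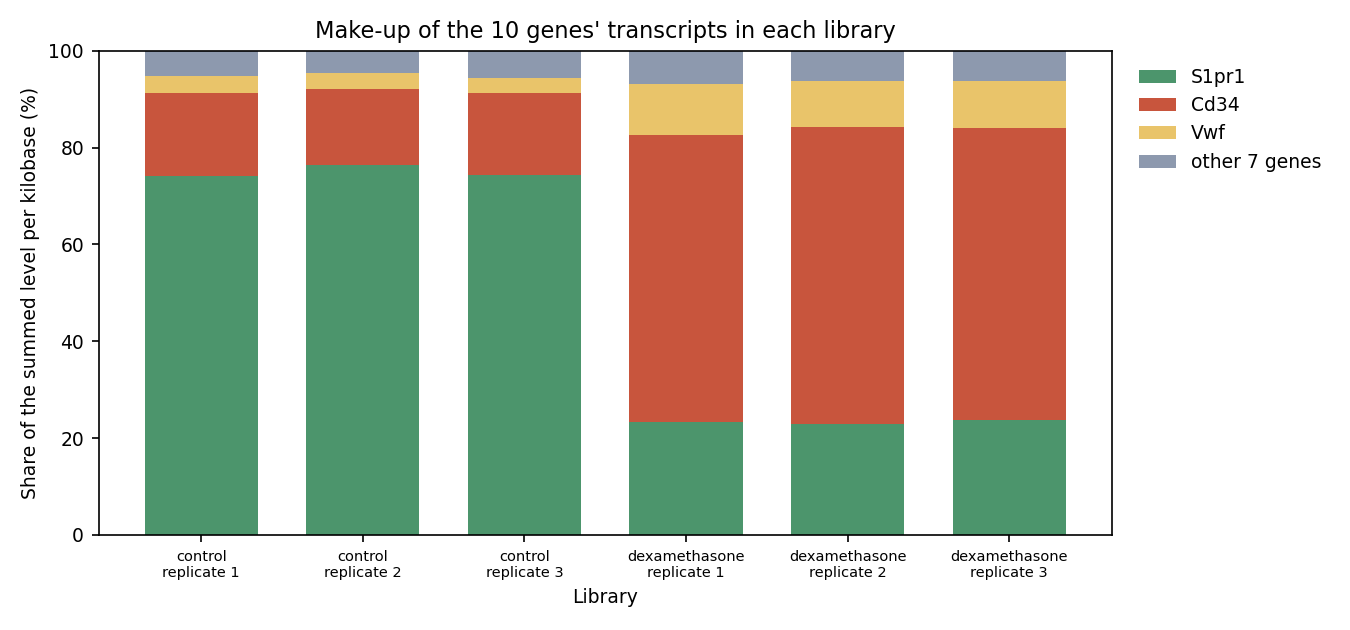
Share (%) of the summed normalized counts per kilobase of the 10 genes in each library, stacked for S1pr1, Cd34, Vwf and the other 7 genes together. S1pr1 takes 74.2% to 76.4% in the control and 22.9% to 23.8% in the dexamethasone libraries, and Cd34 takes 15.7% to 17.1% and 59.1% to 61.4%.

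Of the summed level per kilobase of the 10 genes, S1pr1 made up 74.2%, 76.4% and 74.3% in the control libraries and 23.4%, 22.9% and 23.8% in the dexamethasone libraries. Cd34 made up 17.1%, 15.7% and 16.9% in the control libraries and 59.1%, 61.4% and 60.1% in the dexamethasone libraries. The ratio of Cd34 to S1pr1 within a library does not depend on the size factor of that library. It was 0.231, 0.205 and 0.228 in the control and 2.53, 2.68 and 2.52 in the dexamethasone libraries, 11.7-fold apart. As both genes were picked for their change in these libraries, this gap is a description only. Between Cd93 and Eng the same ratio was 0.0471 ± 0.00433 in the control and 0.794 ± 0.0809 in the dexamethasone libraries (SD, n = 3 each). The sum itself was 3151, 3638 and 3489.8 normalized counts per kilobase in the control libraries and lower, at 1978, 1857 and 1977, in the dexamethasone libraries.

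Promoter sequence was matched by symbol for 3 of the 10 genes in a RefSeq table of the GRCm38.p6 build, which is not the GRCm39 build named for the counts. The 250 bases before each start are shown because Cd34 and Adgrf5 were higher and Eng was lower with dexamethasone. Capitals mark matches, on either strand, to 6 motifs: ETS (CCGGAAGT, ACAGGAAG or AGAGGAAG), the motif of GATA factors, which is AGATAA, a GC box (GGGCGG), FOX (GTAAACA), the core of a glucocorticoid receptor site (AGAACA) and TATAAA.
Cd34, plus strand, chr1:194938571-194938820: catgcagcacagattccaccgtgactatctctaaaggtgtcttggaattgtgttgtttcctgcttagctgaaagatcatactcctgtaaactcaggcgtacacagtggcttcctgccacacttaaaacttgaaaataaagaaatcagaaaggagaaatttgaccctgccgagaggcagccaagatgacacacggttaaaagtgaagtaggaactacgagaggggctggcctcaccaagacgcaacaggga
Eng, plus strand, chr2:32646345-32646594: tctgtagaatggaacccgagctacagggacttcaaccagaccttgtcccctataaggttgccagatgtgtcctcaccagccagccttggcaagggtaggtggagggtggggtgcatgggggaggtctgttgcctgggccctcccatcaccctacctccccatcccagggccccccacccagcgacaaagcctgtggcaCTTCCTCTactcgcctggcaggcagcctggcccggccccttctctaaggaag
Adgrf5, plus strand, upstream start, chr17:43360181-43360430: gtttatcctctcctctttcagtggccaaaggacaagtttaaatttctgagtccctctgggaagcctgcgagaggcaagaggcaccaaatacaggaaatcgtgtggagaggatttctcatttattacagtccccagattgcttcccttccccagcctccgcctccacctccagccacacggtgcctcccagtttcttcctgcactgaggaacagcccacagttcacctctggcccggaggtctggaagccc
Adgrf5, plus strand, downstream start, chr17:43389216-43389465: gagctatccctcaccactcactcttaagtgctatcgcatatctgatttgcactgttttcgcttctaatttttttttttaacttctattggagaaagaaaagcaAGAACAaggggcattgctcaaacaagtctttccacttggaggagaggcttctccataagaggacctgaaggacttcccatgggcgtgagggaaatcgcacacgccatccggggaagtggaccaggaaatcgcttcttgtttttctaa

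The Eng window held an ETS match on the minus strand, 52 to 45 bases before the start, and the downstream Adgrf5 window held AGAACA, 147 to 142 bases before the start. Of all 32851 promoter windows of this length, 9.14% held an ETS match and 16.1% held AGAACA. The GATA, GC box, FOX and TATAAA letters, found in 9.99%, 32.7%, 3.17% and 12.4% of all windows, were in none of the 4 windows. A match is a stretch of letters and not a shown binding site. The windows were 46.4% (Cd34), 62.4% (Eng), 54.4% and 44.8% (Adgrf5) G or C, against a median of 52.4%.

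To set the 10 genes in their pathways, 53 ligands, receptors, enzymes and close relatives were listed by family. Of these, 48 had a row in the table and 33 had enough reads to be tested, at a mean of at least 10 normalized counts. By limma 12 were differentially expressed, 8 higher and 4 lower, where 22.3% of all tested genes were. Their median log2 fold change was 0.14, against 0.00071 over all tested genes. With every library brought to an equal total, the split was 8 higher and 8 lower. Up to 2 genes of each family are named for their high mean level. Tgfbr3, Tgfbr1, Acvrl1, S1pr2, Sphk1, Sphk2, Plpp3, Spns2, Ramp1, Ramp3, Adm, Angpt1, Angpt2, Angpt4, Tek, Jam2, Jam3 and Mcam, and further on Tie1, Rasip1, Ecscr, Selp, Sele, Nos3 and the other marker genes beyond the most abundant, were chosen after their values were seen.

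**Figure D3:**
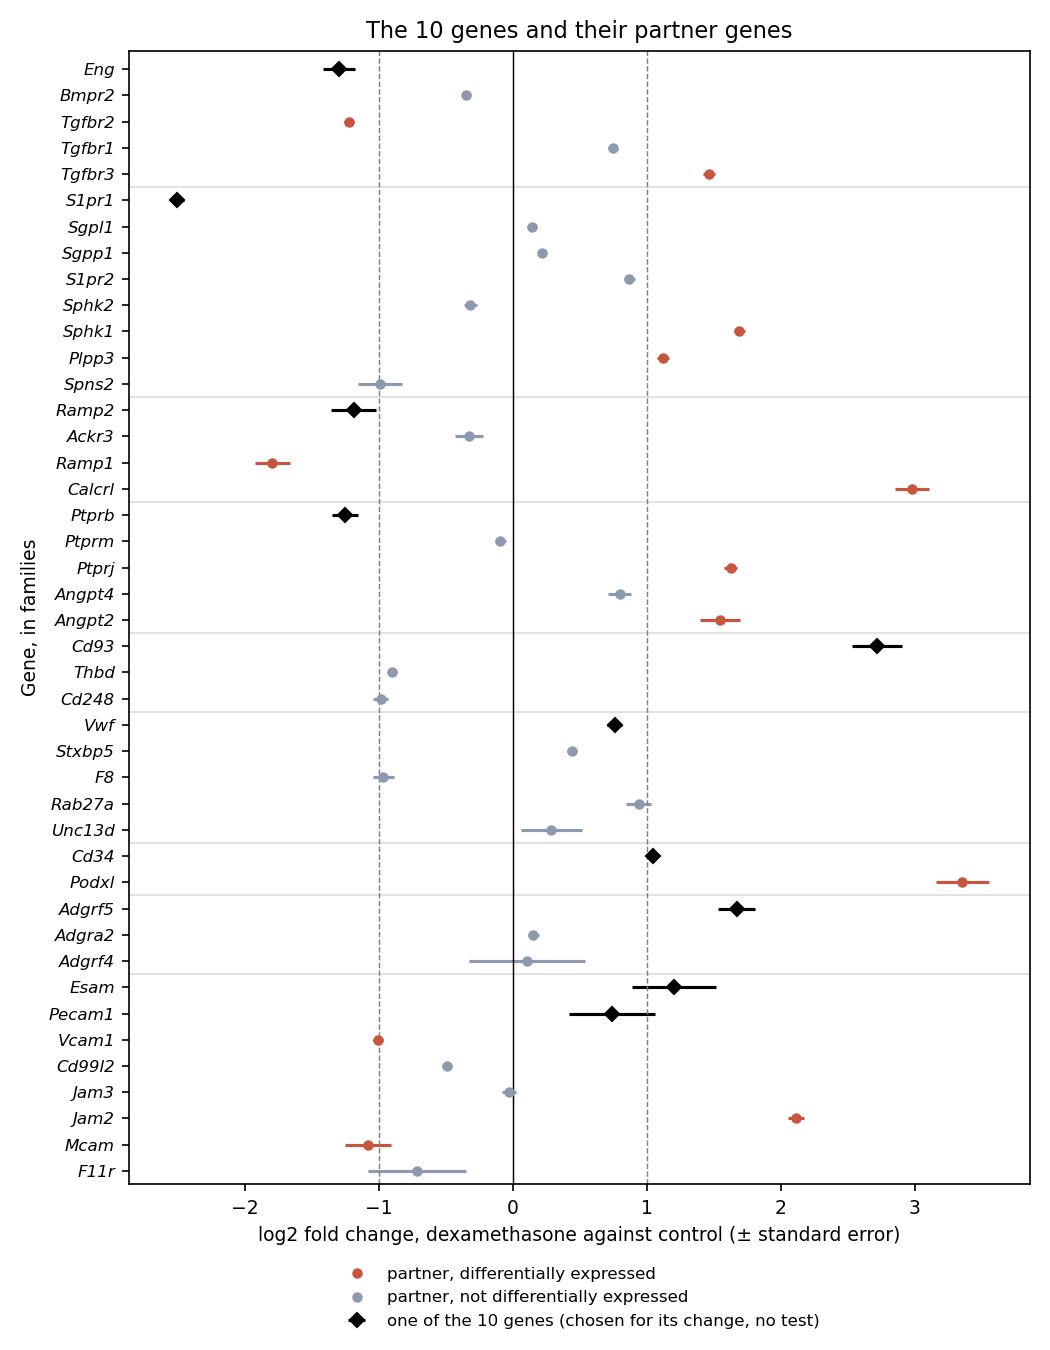
Log2 fold change of dexamethasone against control with its standard error (bars) for the 10 genes (black diamonds) and the 33 tested partner genes (red where differentially expressed, grey where not), in families divided by grey lines and with dashed lines at -1 and 1. Podxl at 3.35, Calcrl at 2.98 and Cd93 at 2.72 stand farthest to the right, and S1pr1 at -2.50 farthest to the left.

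In the endoglin family, the 4 tested receptor genes went in different directions. Tgfbr3, which encodes betaglycan, the close relative of endoglin, rose from 3337 ± 105 to 9226 ± 756 (SD, n = 3 each) normalized counts (log2 fold 1.46, limma adjusted p = 1.97e-19). Tgfbr2, the type II receptor for TGF-beta, fell from 22541 ± 758 to 9692 ± 409 (SD, n = 3 each), with log2 fold -1.22 (limma adjusted p = 1.82e-19). The type I receptor Tgfbr1 had a log2 fold of 0.75 (limma adjusted p = 4.36e-16) and the BMP receptor Bmpr2 one of -0.35 (limma adjusted p = 2.47e-09), both under the fold cut-off. Acvrl1, the endothelial type I receptor that binds BMP9 with endoglin, was close to absent, with a mean of 0.652 ± 1.13 in the control and 4.91 ± 2.66 (SD, n = 3 each) normalized counts in the dexamethasone libraries. Per kilobase, the ratio of Tgfbr3 to Eng was 7.45 ± 0.519 in the control and 50.9 ± 5.98 in the dexamethasone libraries (SD, n = 3 each).

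Among the S1P genes, the receptors S1pr1 and S1pr2 went in opposite directions. S1pr2 had 3645 ± 77.2 normalized counts in the control and 6671 ± 313 in the dexamethasone libraries (SD, n = 3 each), with log2 fold 0.87 (limma adjusted p = 4.69e-16), under the cut-off of 1. The ratio of S1pr2 to S1pr1 per kilobase was 0.192, 0.168 and 0.176 in the control and 1.87, 1.86 and 1.82 in the dexamethasone libraries. S1pr1 was above S1pr2 in every control library and below it in every dexamethasone library. Sphk1, a kinase that makes S1P, rose from 1969.8 ± 56.0 to 6358 ± 193 (SD, n = 3 each) normalized counts (log2 fold change 1.69, limma adjusted p = 5.65e-22), while the other such kinase, Sphk2, had a log2 fold of -0.32 (limma adjusted p = 2.54e-06). Plpp3, a phosphatase that degrades S1P outside the cell, rose with a log2 fold of 1.12 (limma adjusted p = 3.6e-17), which was 0.97 after quantile normalization. Of the enzymes that degrade S1P inside the cell, Sgpl1 and Sgpp1 had log2 fold changes of 0.14 and 0.22 (limma adjusted p = 0.000717 and 5.57e-06), far under the cut-off. The exporter Spns2 had one of -0.99, just short of it, and passed it at an equal library total (-1.10), with edgeR (-1.02) and DESeq2 (-1.01), without control replicate 1 (-1.06) and without dexamethasone replicate 2 (-1.07).

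Of the adrenomedullin receptor genes, Calcrl, the receptor that Ramp2 escorts to the surface, rose while Ramp1 fell. Calcrl rose from 71.3 ± 14.5 to 561 ± 30.5 (SD, n = 3 each) normalized counts (log2 fold 2.98, limma adjusted p = 1.07e-16). Ramp1, which makes the same receptor respond to calcitonin gene-related peptide, fell from 249 ± 19.9 to 71.2 ± 5.60 (SD, n = 3 each), with log2 fold -1.79 (limma adjusted p = 6.13e-12). Ramp3 had too few reads to be tested, with means of 3.03 ± 1.85 and 16.3 ± 1.82 (SD, n = 3 each). Per kilobase, the ratio of Calcrl to the 3 Ramp transcripts together was 0.104, 0.150 and 0.0786 in the control and 1.97, 2.15 and 1.88 in the dexamethasone libraries. The Ramp2 part of this ratio is uncertain, because its exons overlap those of Vps25. Ackr3, a scavenging receptor, had a log2 fold of -0.32 (limma adjusted p = 0.00709), under the cut-off. The ligand gene Adm had only 5, 7 and 5 reads in the control and 5, 7 and 8 reads in the dexamethasone libraries.

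**Figure D4:**
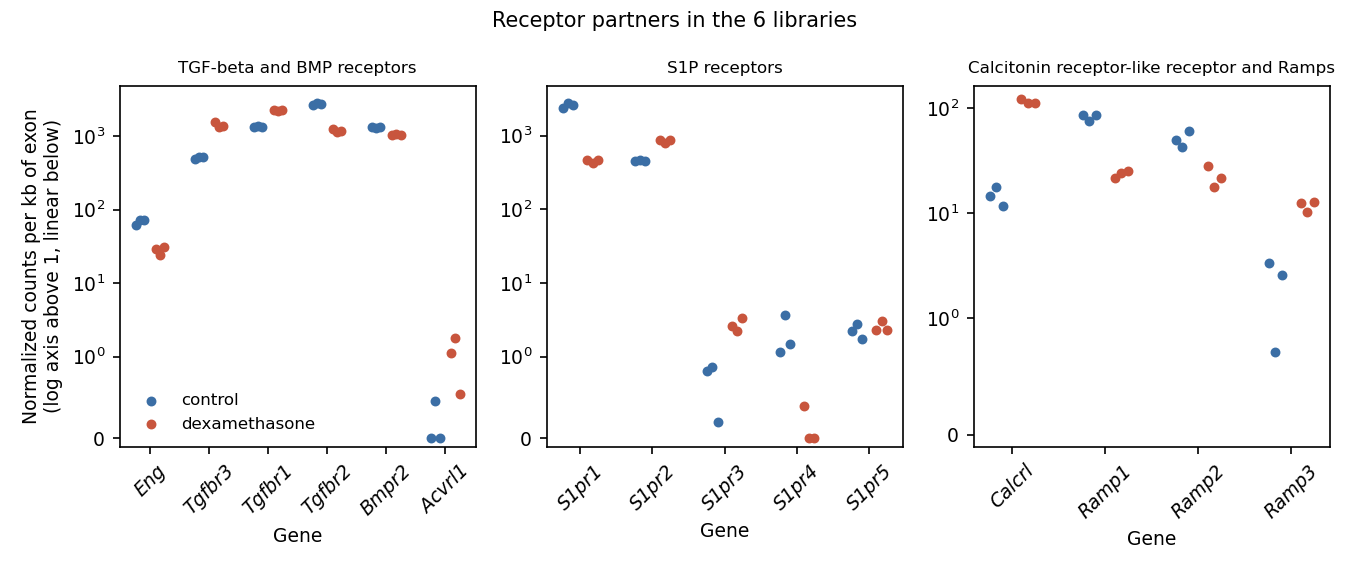
Normalized counts per kilobase of exon (log axis above 1, linear below) in each library for the receptors of TGF-beta and BMP, of S1P, and of adrenomedullin, blue for control and red for dexamethasone. S1pr1 and S1pr2 change places between the groups, Calcrl is above all Ramps only in the dexamethasone libraries, and Acvrl1 is the lowest of its panel in both groups.

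Around VE-PTP, the related receptor phosphatases and the Tie2 ligands were measured. Ptprj rose from 1113 ± 25.6 to 3439 ± 167 (SD, n = 3 each) normalized counts (log2 fold 1.63, limma adjusted p = 3e-20), whereas Ptprm had a log2 fold of -0.092 (limma adjusted p = 0.0385). Angpt2, a ligand of Tie2, rose from 65.9 ± 9.59 to 193 ± 20.9 (SD, n = 3 each), with log2 fold 1.54 (limma adjusted p = 1.29e-09). Of the other ligands, Angpt4 had a log2 fold of 0.80 (limma adjusted p = 4.78e-09), under the cut-off, and Angpt1, with means of 9.33 ± 4.12 and 3.16 ± 0.865 (SD, n = 3 each) normalized counts, had too few reads to be tested. Tie2 itself (Tek) had means of 12.6 ± 1.80 and 8.11 ± 5.48 (SD, n = 3 each) normalized counts (limma adjusted p = 0.146).

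For the adhesion molecules, Podxl, the sialomucin closest to CD34, rose from 15.1 ± 1.34 to 164 ± 13.3 (SD, n = 3 each) normalized counts (log2 fold 3.35, limma adjusted p = 9.69e-14). Per kilobase, Cd34 was 36.7 to 41.3 times as high as Podxl in the dexamethasone libraries, against 188 to 230.4 times in the control libraries. The lectin relatives of Cd93 were lower with dexamethasone but short of the fold cut-off. Thbd (thrombomodulin) had a log2 fold of -0.90 (limma adjusted p = 6.15e-17) and Cd248 (endosialin) one of -0.98 (limma adjusted p = 4.94e-14), and both passed it, at -1.01 and -1.10, at the same library total. Among the junction genes Jam2 rose from 553 ± 38.5 to 2391 ± 146 (SD, n = 3 each) normalized counts (log2 fold change 2.11, limma adjusted p = 2.34e-20), while Jam3 had a log2 fold of -0.026 (limma adjusted p = 0.671). Vcam1, which binds leukocytes, fell from 15388 ± 731 to 7682 ± 51.7 (SD, n = 3 each), at -1.001 on the log2 scale (limma adjusted p = 6.36e-18). Its call was lost without control replicate 2 (-0.96) or dexamethasone replicate 2 (-0.996). Mcam also fell (log2 fold -1.08, limma adjusted p = 5.35e-06), a call lost without dexamethasone replicate 2 (-0.94) and after quantile normalization (-0.97), and Cd99l2 had a log2 fold of -0.49 (limma adjusted p = 2.37e-11).

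Of the genes around Vwf, F8 (clotting factor VIII, which travels bound to Vwf) had a log2 fold of -0.97 (limma adjusted p = 8.16e-11), and Stxbp5, which acts in the release of stored Vwf, had one of 0.44 (limma adjusted p = 7.67e-11). F8 passed the fold cut-off at an equal library total (-1.08) and without dexamethasone replicate 2 (-1.002). In the libraries as deposited, none of the 4 tested genes of this family reached it with limma. Of the 4, 3 had an adjusted p-value under 0.05, as did 72.5% of all tested genes. The relatives of Adgrf5 did not reach it either, with log2 fold changes of 0.15 for Adgra2 (limma adjusted p = 0.00159) and 0.11 for Adgrf4 (limma adjusted p = 0.832).

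Genes listed as more strictly limited to endothelium were used to check the label of the 10 genes, although some, such as Tal1, also act in blood progenitors. Of 30 such genes, 24 had a row, and 13 of these had a mean under 10 normalized counts. VE-cadherin (Cdh5) had a mean of 0.612 ± 1.06 and 1.75 ± 0.527 (SD, n = 3 each) normalized counts in the control and dexamethasone libraries, and Tie1 had 0 reads in all control libraries and a mean of 1.89 ± 1.76 (SD, n = 3) with dexamethasone. Cdh5, Tie1, Rasip1 and Ecscr had 3 reads or fewer in every library, where a count of 0 allows up to 3 reads. The summed level of the 24 genes was 5069 to 5255 normalized counts in the control and 6049.7 to 6585 in the dexamethasone libraries, of which Flt1, a VEGF receptor, made up 83.8% to 86.4%. Without Flt1 the sum was 775 to 852 and 843 to 898. Cdh5, Tie1, Rasip1 and Ecscr were thus at or near 0 in libraries where Cd34, Vwf and S1pr1 were abundant. Other genes of the list were present in both groups. Mean normalized counts in the control and dexamethasone libraries were 4371 and 5374 for Flt1 and 348 and 414 for Kdr. They were 227 and 127 for Stab2, and 70.2 and 94.2 for Plvap. The list was therefore mixed, and the genes near 0 do not stand for all of it.

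Of the 11 endothelial-restricted genes tested, 4 were differentially expressed, 3 higher and 1 lower, where 11.7% of all tested genes were higher and 10.6% lower, and 2 were without control replicate 1. Their median log2 fold change was 0.25, and 0.135 at the same library total. The adhesion receptors Selp and Sele, which capture leukocytes on activated endothelium, had 4 and 5 reads in all 3 control libraries together. With dexamethasone they had means of 46.2 ± 7.07 and 25.4 ± 2.39 (SD, n = 3 each) normalized counts, at least 16.6-fold and 9.14-fold higher when the control libraries are set at the limit of 3 reads each. Both reached the filter on the mean only through the dexamethasone libraries, so that their calls are no support for a direction of the list. Tal1, a transcription factor of blood and endothelial progenitors, rose from 38.5 ± 6.39 to 77.5 ± 2.03 (SD, n = 3 each), with log2 fold 1.00 (limma adjusted p = 7.1e-05). This fold went under the cut-off in 6 of 15 alternatives, among them without control replicate 1 and without dexamethasone replicate 1 or 3. Nos3, the endothelial nitric oxide synthase, fell from 45.1 ± 10.7 to 20.2 ± 7.62 (SD, n = 3 each), with log2 fold -1.17 (limma adjusted p = 0.00111), a call lost without control replicate 1 or without dexamethasone replicate 3. Stab2, a scavenger receptor of sinusoids, had a log2 fold of -0.84 (limma adjusted p = 2.18e-06) and Plvap, of fenestrated vessels, one of 0.42 (limma adjusted p = 0.0322). Kdr had one of 0.25 (limma adjusted p = 0.00812).

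**Figure D5:**
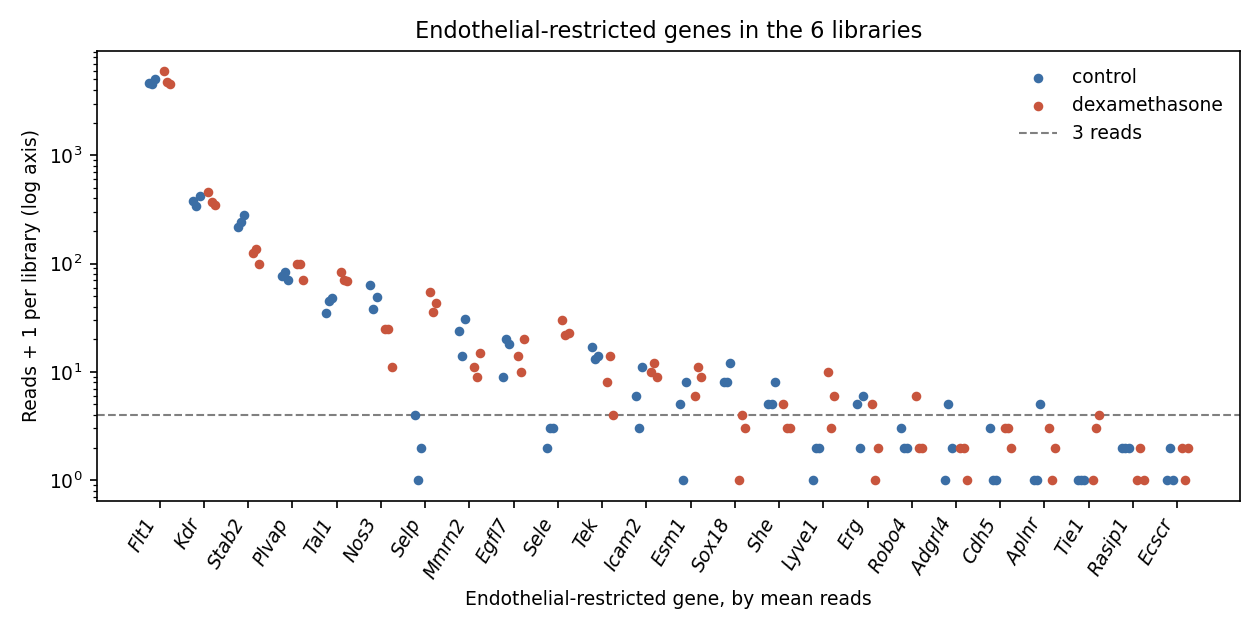
Reads plus 1 (log axis) of 24 endothelial-restricted genes in each library, ordered by mean reads, blue for control and red for dexamethasone, with a dashed line at 3 reads. Flt1 stands far above all others, and Cdh5, Tie1, Rasip1 and Ecscr lie at or under the line in every library.

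Markers of other cells that can carry some of the 10 transcripts were measured in the same libraries, and their part in the differences was not tested. Of 8 pan-blood genes, 5 were tested. Cd53, a leukocyte tetraspanin, rose from 15.7 ± 3.99 to 283 ± 24.8 normalized counts, and the integrin chain Itgb2 rose from 54.6 ± 10.2 to 503 ± 26.2 (SD, n = 3 each; limma adjusted p = 6.6e-16 and 4.91e-17). Laptm5 had means of 19.2 ± 4.53 and 6.41 ± 2.95 and Coro1a of 20.4 ± 3.59 and 6.79 ± 4.95 (SD, n = 3 each), and both reached the filter on the mean only through the control libraries. Ptprc, which encodes the leukocyte protein CD45, had means of 2.48 ± 0.634 and 4.71 ± 1.61 (SD, n = 3 each). The summed level of the 8 genes was 126 to 187 in the control and 798 to 862 in the dexamethasone libraries. Without Cd53 and Itgb2 the other 6 summed to 66.8 to 102 and 42.0 to 67.6, so that the higher sum came from these genes. Of 8 megakaryocyte and platelet genes, 6 had a row and 2 were tested. Itga2b had a log2 fold of 0.10 (limma adjusted p = 0.262) and Gp1ba one of -1.68 (limma adjusted p = 1.58e-11). Pf4, with means of 3.10 ± 0.706 and 0.636 ± 1.10 (SD, n = 3 each) normalized counts, had too few reads to be tested. The summed level of these 6 genes was 667 to 736 in the control and 500.0 to 567 in the dexamethasone libraries.

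Of 10 genes of fibroblasts and mesenchymal progenitors, which can carry CD34, 9 were tested, with 4 differentially expressed higher and 0 lower by limma at the fold cut-off, against 11.7% and 10.6% of all tested genes, while Ly6a and Mfap5 were lower by adjusted p-value but not by fold. Of the 4, Clec3b reached the filter on the mean only through the dexamethasone libraries, and its log2 fold of 1.03 was under the cut-off with a pseudocount of 5 (0.82), at an equal library total (0.93), without control replicate 3 (0.89) and without dexamethasone replicate 1 (0.98). The summed level of the 10 genes was 16393 to 17315 normalized counts in the control and 26159.6 to 27391 in the dexamethasone libraries. Pdgfra rose from 2599.9 ± 57.5 to 7787 ± 504 (SD, n = 3 each) normalized counts (limma adjusted p = 9.48e-21), and Cxcl12 had a log2 fold of 0.54 (limma adjusted p = 2.67e-12), under the cut-off. Of 8 mural genes, 6 were tested and 2, Acta2 and Notch3, fell, where 10.6% of all tested genes did. Acta2, the smooth muscle actin, fell from 144918 ± 3876 to 12449 ± 493 (SD, n = 3 each) normalized counts, and Pdgfrb, at 22707 ± 755 and 21513 ± 1242 (SD, n = 3 each), had a limma adjusted p = 0.0849. The summed level of the mural genes was 172159 to 181627 in the control and 43168 to 47092 in the dexamethasone libraries. Without Acta2 the other 6 summed to 31464 to 33314 and 31229 to 34609, so that the groups overlapped, and Cspg4 had a log2 fold of 0.43 (limma adjusted p = 5.64e-10), under the cut-off.

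Among 10 osteoblast genes, which check the label of the cells, 7 were lower and 2 higher by limma, where 10.6% and 11.7% of all tested genes were. Col1a1, the main bone collagen, was among the most abundant with 961923 ± 32794 and 261192 ± 17852 (SD, n = 3 each) normalized counts, and Spp1 (osteopontin) rose from 33595 ± 988 to 1279670.0 ± 29570.5 (SD, n = 3 each). Dmp1, the other gene called higher, rose from 38.5 ± 2.66 to 5639 ± 326 (SD, n = 3 each), a log2 fold of 7.16. Sp7, Runx2 and Alpl were among the 7 lower. Of the genes for osteocalcin, the protein used to select the cells, Bglap had a mean of 107 ± 12.9 and 12.2 ± 2.80 and Bglap2 one of 324 ± 21.0 and 31.3 ± 2.17 (SD, n = 3 each) normalized counts. These near-identical copies can share reads, so the split between them is uncertain.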

How the data were processed

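RNA from 3 control and 3 dexamethasone libraries was sequenced after stranded mRNA library preparation. Per the submitters' processing notes the tools were STAR 2.7.10a and DESeq2 1.36.0 and the build GRCm39. The annotation release and the strand setting were not given in the sources used here. The deposited table holds a signal for each gene, counts that the authors divided by a size factor for each library (normalized counts), and 0 columns were left unused. Whole reads were recovered from the steps of these values (tolerance 0.001), giving 72596611 to 89910728 reads a library.

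Testing covered the 17442 of 29616 genes whose mean reached 10 normalized counts, and was done on log2(normalized count + 1) with limma 3.58.1 in R 4.3.3, with a trended prior variance and Benjamini-Hochberg adjustment. Fold changes on this scale understate the change of low genes. Differentially expressed means a log2 fold of 1 or more in either direction together with an adjusted p-value under 0.05. The fit was tested on simulated data. Levels per kilobase used merged exons of GENCODE M21, and a count of 0 was read as up to 3 reads, for counting error only. No source says that the libraries came from separate mice, so p-values measure the spread between these libraries, which may be technical.

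The 10 genes and all gene lists were chosen with earlier results of these data known. Named were the 10 genes, the 5 most abundant endothelial-restricted genes with Cdh5 and Kdr, up to 2 of the most abundant genes of each other list, and the 3 genes nearest in pattern to each of the 3 most abundant of the 10. Each result was recomputed with the pseudocount, the filter or the scaling changed, with an untrended limma fit, from recovered reads by edgeR 4.0.16 and by DESeq2 1.42.0, with a replicate block, and leaving out each library.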

Additional observations from a re-analysis of the deposited data

How the results depend on the processing

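None of the 10 genes changed direction in any of the 15 or 16 alternatives computed for each, and Cd93, Esam and Pecam1 gave no value at a mean of at least 100 normalized counts. Their log2 fold changes ranged from 0.85 to 1.07 for Cd34, 0.61 to 0.83 for Vwf, 2.52 to 2.80 for Cd93, 1.56 to 1.76 for Adgrf5, 1.00 to 1.48 for Esam and 0.47 to 0.91 for Pecam1. For the others they ranged from -1.36 to -1.14 for Ptprb, -1.41 to -1.20 for Eng, -2.66 to -2.44 for S1pr1 and -1.36 to -1.03 for Ramp2. At the same library total the median log2 fold change of all genes was -0.113. Over the whole table, 3894 of 17442 tested genes (22.3%) were called by limma, and 12645 (72.5%) at an adjusted p-value alone. At a mean of at least 100, where fewer genes were tested, 2170 were called (1350 higher and 820 lower). With each library left out, 3888 to 3922 were called. Of the 11 tested endothelial-restricted genes 4 were called, and 8 at an adjusted p-value alone, where 72.5% of all tested genes were. At a mean of at least 100, limma called 0 of the 3 tested (3 at an unadjusted p-value under 0.05). With each library left out 2 to 5 were called, the 2 without control replicate 1. Of the 33 tested partner genes 12 were called, and 29 at an adjusted p-value alone, where 72.5% of all tested genes were. With no filter 19 were called (48 tested), and 12 to 16 with each library left out. Of the 22 tested markers of other cell types 11 were called, 6 higher and 5 lower, where 22.3% of all tested genes were. With each library left out, 10 to 12 of these markers were called. The log2 fold change turned from 0.14 to -0.078 for Sgpl1 and from 0.15 to -0.050 for Adgra2 after quantile normalization, and from 0.10 to -0.012 for Itga2b at the same library total. For Adgrf4 it turned from 0.11 to -0.091, -0.062 and -0.36 without control replicate 1, control replicate 3 and dexamethasone replicate 3, and ranged up to 0.54 with each library left out. The cause was not tested. Replicate numbers did not pair the samples (correlations of deviations -0.156, -0.233 and -0.0461), and with a replicate block 3897 genes were called over the whole table, and 4, 12 and 11 of the lists. Low counts limited Esam, Pecam1 and Cd93 most.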

Other observations

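Genes with a pattern over the 6 libraries like that of the 3 most abundant of the 10 genes were looked for among 12020 genes, by the root mean square distance between centred log2 values, as a description with no test. Nearest to Cd34 were Slc19a1, a folate carrier (distance 0.0186), Ppa1, a pyrophosphatase (0.0203), and Lsm6, an RNA-binding protein (0.0223). Nearest to S1pr1 were Hcfc1r1 (0.0458), Sfrp2, a secreted Wnt modulator (0.056), and Irs1, an adaptor of the insulin receptor (0.0644). Nearest to Vwf were B4galt5, a galactosyltransferase (0.0262), Wdr46 (0.0291) and Itga3, an integrin chain (0.0326).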
